A study of Mus musculus with 64 samples.

Results

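The period genes Per1, Per2 and Per3, the cryptochrome genes Cry1 and Cry2, and Ciart were followed in microglia of the mouse hippocampus and frontal cortex. These 6 genes were taken by name from a table of 49671 genes, and all 6 passed the filter on low counts in the main fits. Total RNA was sequenced from 64 libraries of young adult male C57BL/6 mice (of the N substrain, by the study's methods) kept on a reversed light-dark cycle, from cells isolated with magnetic beads against CD11b after perfusion and cold mechanical dissociation. CD11b is also carried by macrophages at the borders of the brain and by monocytes, so the beads do not separate microglia from these cells. The labels place each library in a region (Hippocampus or Frontal_cortex), a phase (Day or Night) and a condition (Ctr0, Ctr1, Soci or Cogn), which gives 16 groups of 4 libraries. The groups share strain and isolation, no transgene or drug is named for any of them, the labels do not explain the 4 condition names, and they do not say whether Day means the light phase or the laboratory daytime. Nothing in the labels says that the 4 libraries of a group came from separate animals, so the p-values measure the spread between these libraries, part of which may be technical.

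The circadian clock of mammalian cells is a feedback loop. CLOCK and BMAL1 (the product of Arntl) activate the Per and Cry genes through E-boxes, and the PER and CRY proteins then gather in the nucleus and repress that activation, so that their own transcripts rise and fall daily. CRY1 and CRY2 are the strong repressors of the loop, PER1 and PER2 carry them and are also induced by hormones and other signals, PER3 is a further period protein that is less needed for the rhythm itself, and CIART (also called CHRONO) is a repressor that binds BMAL1. Clocks of this kind run in most tissues, microglia included, and glucocorticoids are a daily signal to which Per1 in particular responds.

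Library totals ran from 10.2 to 26.3 M counts in frontal cortex and from 11.6 to 84.5 M in hippocampus, where 3 libraries were above 2 times the median of 17.6 M. Of the defining microglial markers, Cx3cr1 ran from 1980 to 3956 CPM, P2ry12 from 1164 to 2754 CPM and Tmem119 from 641 to 1977 CPM over the 64 libraries. These rose in day hippocampus too, Tmem119 by a log2 of 0.52 ± 0.06 (SE, edgeR, adjusted p = 6.57e-08), P2ry12 by 0.35 ± 0.08 and Cx3cr1 by 0.19 ± 0.06. In frontal cortex Tmem119 rose by 0.63 ± 0.09 (SE, edgeR, adjusted p = 3.71e-06), and P2ry12, at 0.21 ± 0.10, and Cx3cr1, at 0.21 ± 0.09, did not pass. Of the full list of 10 microglial markers 6 passed upward in hippocampus and 4 in frontal cortex, and 0 passed downward in either (edgeR). Aif1, Itgam, Siglech and Trem2 passed in neither region. The part of these rises in the changes given further on was not tested. CPM is a gene's part of all counts in its library, scaled by TMM, which takes most genes as unchanged. Markers of other cells differed between the phases. The 8 border macrophage markers summed to between 929 and 1483 CPM in day and between 681 and 1112 CPM in night hippocampus (frontal cortex, 961 to 1576 and 775 to 1196 CPM), and 8 of them passed the day-night test upward in hippocampus and 7 in frontal cortex. The 7 astrocyte markers summed to between 315 and 512 CPM in day and between 330 and 1832 CPM in night hippocampus (frontal cortex, 324 to 605 and 275 to 2439 CPM), and 6 passed downward in each region. The remaining one, Slc1a3, passed upward in hippocampus, by a log2 of 0.40 ± 0.08 (SE, edgeR, adjusted p = 0.000129). In frontal cortex Slc1a3 had 0.08 ± 0.11 and did not pass (SE, edgeR, adjusted p = 0.541). The 8 choroid plexus markers all passed downward in hippocampus, with sums of 1.65 to 917 CPM in day and 11.5 to 2904 CPM in night. Of the other lists, 6 of 7 oligodendrocyte markers passed downward in hippocampus and 3 in frontal cortex, 2 and 7 of 8 neuronal markers did, and 4 and 0 of 7 endothelial markers did. Of 4 tested neutrophil and monocyte markers 1 passed upward and 1 downward in hippocampus and 0 in frontal cortex, where 0 of 4 tested choroid plexus markers passed as well (edgeR). Of 9 tested genes of the dissociation response 5 passed upward in hippocampus, and 2 upward and 2 downward in frontal cortex. In bulk samples fewer cells of a type and less RNA per cell cannot be told apart.

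The levels of the 6 genes spanned about 2 orders of magnitude. The level of Per1 (chromosome 11, 69095217 to 69109960, plus strand) ran from 22.1 to 81.3 CPM over the libraries, and that of Per3 (chromosome 4, 151003652 to 151044665, minus strand) from 21.5 to 84.4 CPM. Per2 (chromosome 1, 91415982 to 91459324, minus strand) lay between 5.64 and 43.8 CPM, Cry2 (chromosome 2, 92403646 to 92434043, minus strand) between 9.88 and 24.8 CPM and Cry1 (chromosome 10, 85131700 to 85185064, minus strand) between 3.15 and 16.2 CPM. Ciart (chromosome 3, 95878503 to 95882251, minus strand) was the lowest, at 0.444 to 1.94 CPM, with 6 to 81 counts per library, so its values rest on few reads. Positions are those of build GRCm38.

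Between genes, levels are compared per kilobase of exon. In day libraries of the hippocampus Per1 had 9.65 ± 2.96 CPM per kilobase (SD, n = 16), Per3 6.27 ± 1.01, Per2 4.76 ± 1.23, Cry1 3.41 ± 0.446, Cry2 3.07 ± 0.386 and Ciart 0.438 ± 0.122. In night libraries Per1 had 6.64 ± 2.59 CPM per kilobase (SD, n = 16), Per3 3.40 ± 0.797, Cry2 a range of 1.72 to 3.86, Per2 2.26 ± 0.720, Cry1 1.43 ± 0.349 and Ciart 0.419 ± 0.139. Per1 and Per3 thus led the list in each phase and Ciart closed it, while Cry1 stood above Cry2 in the day mean and below it in the night mean. Neighbours in this list overlapped in their ranges, apart from Cry2 and Ciart in day and Cry1 and Ciart in night. Cry2 shares 295 exon bases with the gene D930015M05Rik on the other strand, which had a median of 0 CPM, and the other 5 genes share no exon base with another gene.

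**Figure D1:**
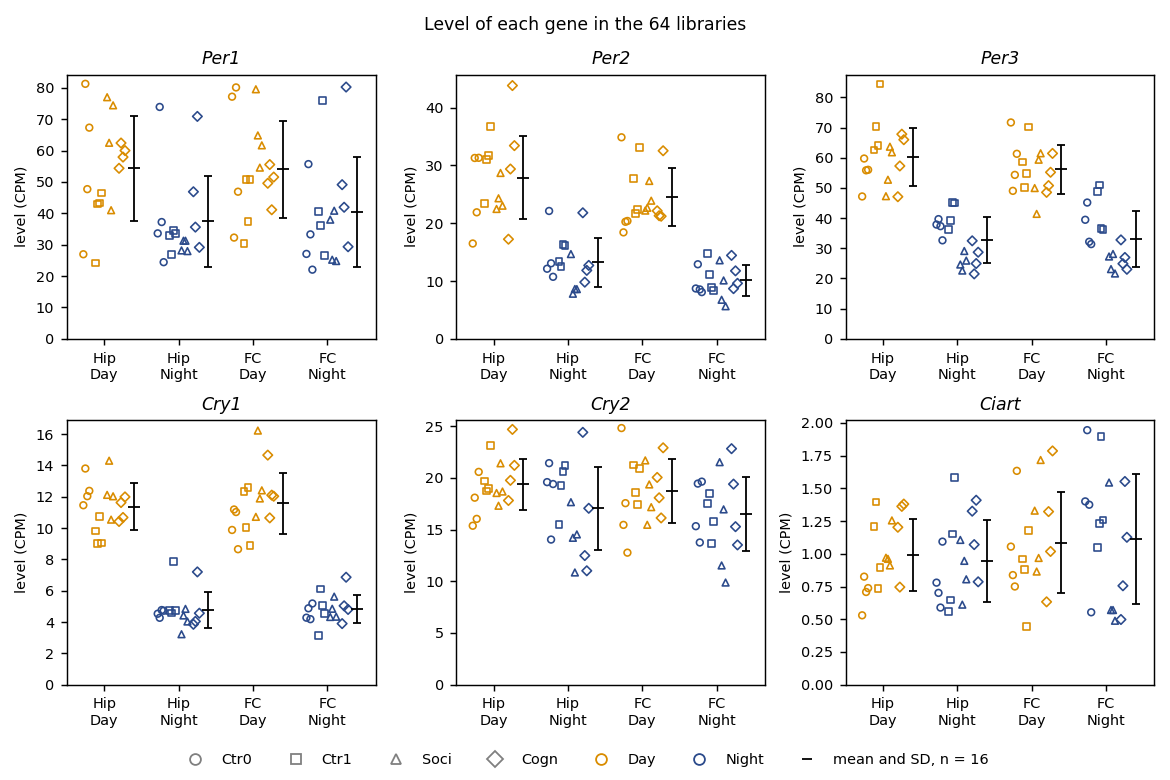
Level in CPM (y axes, starting at 0) of each gene in the 64 libraries, by region (Hip, hippocampus; FC, frontal cortex) and phase, with a symbol for each condition and the mean and SD of 16 libraries in black. The day and night libraries of Cry1 are separate in both regions, while those of Cry2 and Ciart lie over each other.

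The 250 bases before the annotated start were searched for the sequence motifs of the loop, in the RefSeq promoter table of build GRCm38.p6. It held 5 of the 6 genes, Per1 with a pair of starts. Capitals mark matches, on either strand, to the E-box CACGTG, bound by CLOCK and BMAL1, to its variant E'-box CACGTT, to the D-box TTATGNAA, bound by the PAR bZIP proteins DBP, TEF and HLF, to the cyclic AMP response core TGACGT and to AGGTCA, the core of the sites of ROR and REV-ERB. Of 32851 such stretches 6.02% held an E-box, 3.85% an E'-box, 3.07% a D-box, 6.47% TGACGT and 14% AGGTCA. Shown are the 2 cryptochromes, which differ in their day-night change, Per3, and Ciart, each 5′ to 3′ on its own strand.
Per3 (chr4:151044666-151044915, minus strand): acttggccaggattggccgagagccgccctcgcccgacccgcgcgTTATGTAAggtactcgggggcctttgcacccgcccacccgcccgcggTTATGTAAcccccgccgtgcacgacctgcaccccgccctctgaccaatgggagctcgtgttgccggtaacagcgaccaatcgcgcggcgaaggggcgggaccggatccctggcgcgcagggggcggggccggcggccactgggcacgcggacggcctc
Cry1 (chr10:85185055-85185304, minus strand): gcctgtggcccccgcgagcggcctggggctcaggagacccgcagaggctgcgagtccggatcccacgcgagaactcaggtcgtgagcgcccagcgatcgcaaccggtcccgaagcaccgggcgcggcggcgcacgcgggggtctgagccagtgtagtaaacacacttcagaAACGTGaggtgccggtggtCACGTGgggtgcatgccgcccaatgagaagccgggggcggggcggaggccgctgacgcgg
Cry2 (chr2:92434070-92434319, minus strand): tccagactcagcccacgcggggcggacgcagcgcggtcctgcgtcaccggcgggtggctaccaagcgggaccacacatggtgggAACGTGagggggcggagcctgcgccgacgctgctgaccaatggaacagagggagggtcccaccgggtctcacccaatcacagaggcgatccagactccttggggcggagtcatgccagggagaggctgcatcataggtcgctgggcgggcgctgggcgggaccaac
Ciart (chr3:95882229-95882478, minus strand): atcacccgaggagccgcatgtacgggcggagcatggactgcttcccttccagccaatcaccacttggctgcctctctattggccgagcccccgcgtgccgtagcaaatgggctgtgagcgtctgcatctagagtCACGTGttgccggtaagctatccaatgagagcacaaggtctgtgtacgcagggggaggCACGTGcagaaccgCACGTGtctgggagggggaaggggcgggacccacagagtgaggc

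Per3 had 2 D-boxes and no E-box, Cry1 an E-box and an E'-box, Cry2 an E'-box and Ciart 3 E-boxes. In Per1 the upstream stretch held an E-box, a D-box and a ROR core, and the downstream stretch the cyclic AMP core. These are matches of letters in a short window, not measured sites.

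Cry1 was higher in day in both regions and its libraries did not overlap. In hippocampus its 16 day libraries ran from 9.02 to 14.3 CPM with a median of 11.5, and its 16 night libraries from 3.22 to 7.88 CPM with a median of 4.57. In frontal cortex they ran from 8.65 to 16.2 (median 11.5) and from 3.15 to 6.86 CPM (median 4.83). The rise was 1.29 ± 0.09 on the log2 scale in hippocampus (SE, edgeR, adjusted p = 6.23e-12) and 1.25 ± 0.09 in frontal cortex (SE, edgeR, adjusted p = 5.13e-12). All 16 day libraries stood above all 16 night libraries in 0.303% of the genes tested in hippocampus and 0.314% in frontal cortex.

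Per2 and Per3 also rose in day. Per2 ran from 16.5 to 43.8 CPM in day (median 29.0) and from 7.81 to 22.1 CPM in night hippocampus (median 12.6), where 13 of the 16 day libraries lay above the highest night library. In frontal cortex its day libraries, 18.4 to 34.9 CPM (median 22.3), all lay above its night libraries, 5.64 to 14.8 CPM (median 9.23). The log2 rise of Per2 was 1.12 ± 0.14 in hippocampus (SE, edgeR, adjusted p = 1.62e-07) and 1.27 ± 0.12 in frontal cortex (SE, edgeR, adjusted p = 1.28e-09). Per3 showed the reverse as to overlap. Its day libraries in hippocampus, 47.1 to 84.4 CPM (median 60.8), all lay above its night libraries, 21.5 to 45.1 CPM (median 32.6), and in frontal cortex 10 of 16 day libraries did, with 41.4 to 71.7 CPM in day (median 55.0) and 21.7 to 50.9 CPM in night (median 31.8). The log2 rise of Per3 was 0.92 ± 0.10 in hippocampus (SE, edgeR, adjusted p = 1.70e-08) and 0.76 ± 0.11 in frontal cortex (SE, edgeR, adjusted p = 1.88e-06).

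The rise of Per1 was smaller and its libraries overlapped widely. In hippocampus it ran from 24.2 to 81.3 CPM in day (median 56.1) and from 24.4 to 73.9 CPM in night (median 33.2), and in frontal cortex from 30.3 to 80.1 (median 51.2) and from 22.1 to 80.2 CPM (median 37.1). In each region 14 of 16 day libraries of Per1 were above the night median. Its log2 rise was 0.58 ± 0.16 in hippocampus (SE, edgeR, adjusted p = 0.0045) and 0.41 ± 0.17 in frontal cortex (SE, edgeR, adjusted p = 0.0479). The hippocampal call of Per1 was lost when libraries were scaled by their totals (log2 0.40, edgeR, adjusted p = 0.0628), with the cell type scores given further on, and without replicate 4 (log2 0.36, edgeR, adjusted p = 0.16), and the cortical call was lost in 12 of 16 alternatives.

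Cry2 and Ciart did not pass the test in either region. Cry2, the paralog of Cry1, ran from 15.4 to 24.7 CPM in day and from 10.9 to 24.4 CPM in night hippocampus, with medians of 18.9 and 17.4, and from 12.8 to 24.8 and 9.88 to 22.8 CPM in frontal cortex, with medians of 18.3 and 16.4. The log2 difference of Cry2 was 0.22 ± 0.09 in hippocampus (SE, edgeR, adjusted p = 0.0599) and 0.17 ± 0.10 in frontal cortex (SE, edgeR, adjusted p = 0.162). The hippocampal value of Cry2 passed in 3 of 17 alternatives, with the condition as a term (edgeR, adjusted p = 0.0488), with the share of Gm23935 as covariate (edgeR, adjusted p = 0.0461) and with the cell type scores. Ciart had medians of 0.936 CPM in day and 0.876 CPM in night hippocampus, and of 0.993 and 1.18 CPM in frontal cortex. Its log2 difference was 0.15 ± 0.15 (SE, edgeR, adjusted p = 0.462) and -0.04 ± 0.20 (SE, edgeR, adjusted p = 0.905), and differences of the size of these errors were not detectable at this depth.

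In all, 4 of the 6 genes rose in hippocampus and the same 4 in frontal cortex, where 23.4% and 20.6% of the genes tested rose. With library totals alone 3 of them passed in each region, Per2, Per3 and Cry1. That scaling moved the median log2 change of all genes from 0.02 to -0.14 in hippocampus and from -0.02 to -0.09 in frontal cortex, and the genes that rose from 3637 of 6550 called to 265 of 4288, and from 3084 of 6267 to 656 of 4061. Because markers of other cells moved with phase, the test was repeated with the scores of 7 other cell types as covariates, a fit in which 45 genes passed in hippocampus and 2233 in frontal cortex. In it Cry1 rose by 1.11 in hippocampus (edgeR, adjusted p = 0.00257) and by 1.53 in frontal cortex (edgeR, adjusted p = 2.18e-06), and Per2 by 1.28 (edgeR, adjusted p = 0.00011) and 1.60 (edgeR, adjusted p = 9.37e-08). Per3 rose by 1.33 in hippocampus (edgeR, adjusted p = 0.000458), and its cortical value of 0.48 did not pass (edgeR, adjusted p = 0.12). Cry2 passed in this fit, with 0.65 in hippocampus (edgeR, adjusted p = 0.0125) and 0.64 in frontal cortex (edgeR, adjusted p = 0.00306), and Per1, at 0.23 and 0.45, did not pass with edgeR.

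The ratio of the 2 cryptochromes within a library does not depend on how libraries are scaled against each other. In hippocampus there were 0.391 to 0.827 Cry1 counts per Cry2 count in day (median 0.587) and 0.158 to 0.654 in night (median 0.273), and in frontal cortex 0.398 to 1.05 (median 0.621) and 0.171 to 0.449 (median 0.296). The log2 ratio was higher in day by 1.06 in hippocampus and by 1.07 in frontal cortex, with p = 1e-05 in each (2-sided permutation test, 100000 resamples, n = 16 per phase; adjusted over 4 ratios, p = 2e-05), the smallest p these resamples can give. The ratio of Per2 to Per1 moved less. Its medians were 0.514 in day and 0.383 in night hippocampus, and 0.449 and 0.281 in frontal cortex, with log2 differences of 0.55 (permutation test, p = 0.00403; adjusted, p = 0.00403) and 0.83 (permutation test, p = 2e-05; adjusted, p = 2.67e-05). Without replicate 3 the hippocampal difference of Per2 to Per1 was 0.35 and did not pass (permutation test, p = 0.0828).

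**Figure D2:**
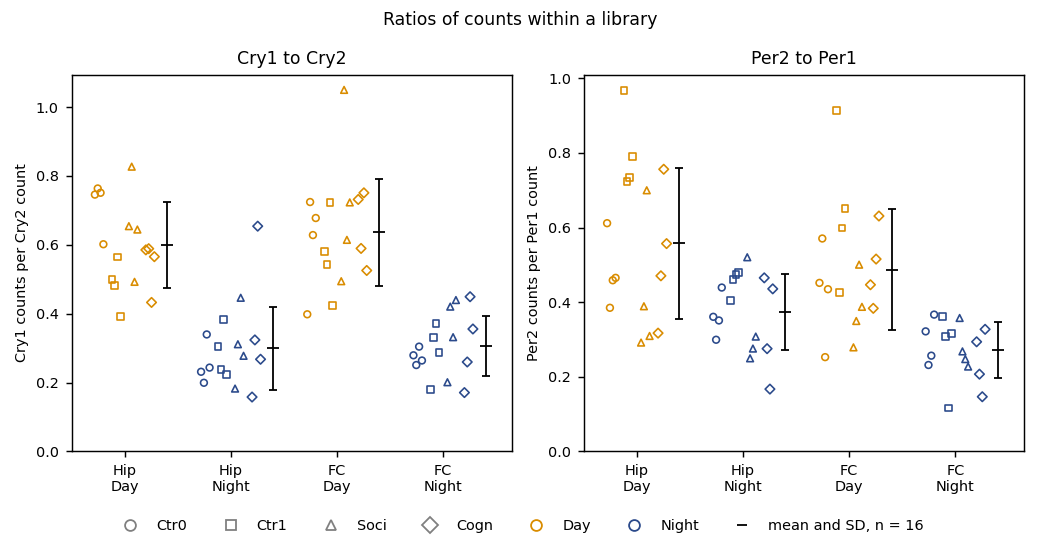
Counts of Cry1 per count of Cry2 (left) and of Per2 per count of Per1 (right) in each of the 64 libraries (y axes, starting at 0), by region and phase, with a symbol for each condition and the mean and SD of 16 libraries in black. The day medians of Cry1 to Cry2 are 0.587 and 0.621 and the night medians 0.273 and 0.296.

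The day-night change was then asked within each condition, from 4 against 4 libraries in 8 contrasts. Cry1 and Per2 rose in 8 of 8 and Per3 in 7 of 8. The log2 rise of Cry1 ran from 0.86 ± 0.17 in hippocampal Ctr1 to 1.61 ± 0.17 in hippocampal Soci (SE, edgeR, adjusted p = 0.00321 and 4.5e-06), and its libraries did not overlap in any of the 8. In hippocampal Soci the day libraries of Cry1 ran from 10.5 to 14.3 CPM and the night libraries had 3.22, 4.04, 4.42 and 4.84, and in hippocampal Ctr1 9.02, 9.05, 9.82 and 10.7 against 4.58, 4.72, 4.75 and 7.88. The night libraries of Ctr1 were close to each other apart from the 7.88 CPM of replicate 3.

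For Per2 the rise ran from 0.85 ± 0.27 in hippocampal Ctr0 to 1.42 ± 0.25 in cortical Soci (SE, edgeR, adjusted p = 0.0348 and 0.000909), with libraries that did not overlap in 6 of 8. For Per3 it ran from 0.44 ± 0.15 in cortical Ctr1, which did not pass (SE, edgeR, adjusted p = 0.0884), to 1.19 ± 0.13 in hippocampal Cogn (SE, edgeR, adjusted p = 8.32e-06), with libraries that did not overlap in 7 of 8. In cortical Ctr1 Per3 had 50.2, 54.8, 58.6 and 70.1 CPM in day and 36.3, 36.5, 48.9 and 50.9 in night, so that the lowest day and the highest night library crossed by less than 1 CPM. These calls were not equally stable. For Per2 in hippocampal Ctr0 the call was lost in 9 of 15 alternatives (log2 0.57 to 1.01, edgeR or DESeq2, adjusted p up to 0.337), replicates 2, 3 and 4 each among those left out, and in hippocampal Cogn in 4 of 15. For Per3 in hippocampal Ctr0 it was lost in 4 of 15, and for Per2 and Cry1 in hippocampal Ctr1 in 3 of 15 each, without replicate 2, without replicate 4 and with the cell type scores. No value of Per2, Per3 or Cry1 in the 8 contrasts changed sign in these alternatives. The share of genes that rose was 8.1% in Ctr0, 5.04% in Ctr1, 5.11% in Soci and 2.28% in Cogn of the hippocampus, and 1.84%, 2.27%, 4.78% and 2.49% in the same order in frontal cortex. The 4 day libraries all lay above the 4 night libraries for 8.51%, 6.83%, 7.58% and 3.63% of genes in hippocampus and for 6.62%, 7.42%, 8.01% and 6% in frontal cortex, in the same order.

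Per1 passed in 1 of 8 contrasts, in hippocampal Soci, where its day libraries had 41.0, 62.5, 74.4 and 77.0 CPM and its night libraries 28.0, 28.2, 31.3 and 31.3 (log2 1.15 ± 0.30, SE, edgeR, adjusted p = 0.0194). In cortical Soci it had 54.6, 61.7, 64.8 and 79.5 CPM against 24.8, 25.2, 38.0 and 40.8 (log2 1.02 ± 0.32, SE, edgeR, adjusted p = 0.0518). In these 2 contrasts the libraries did not overlap, and in the other 6 they did, with log2 values from -0.07 to 0.77. The hippocampal Soci call of Per1 was lost without replicate 1, 2 or 4 (edgeR, adjusted p = 0.107, 0.108 and 0.14), without the 3 largest libraries (edgeR, adjusted p = 0.059) and with the cell type scores (edgeR, adjusted p = 0.323), and DESeq2 called Per1 in 2 of 8. Cry2 passed in 0 of 8 (edgeR, 2 at an unadjusted p under 0.05, 0 with DESeq2), with log2 values from -0.05 to 0.45, and Ciart in 0 of 8 (edgeR, 0 at an unadjusted p under 0.05, 0 with DESeq2), with values from -0.64 to 0.62.

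**Figure D3:**
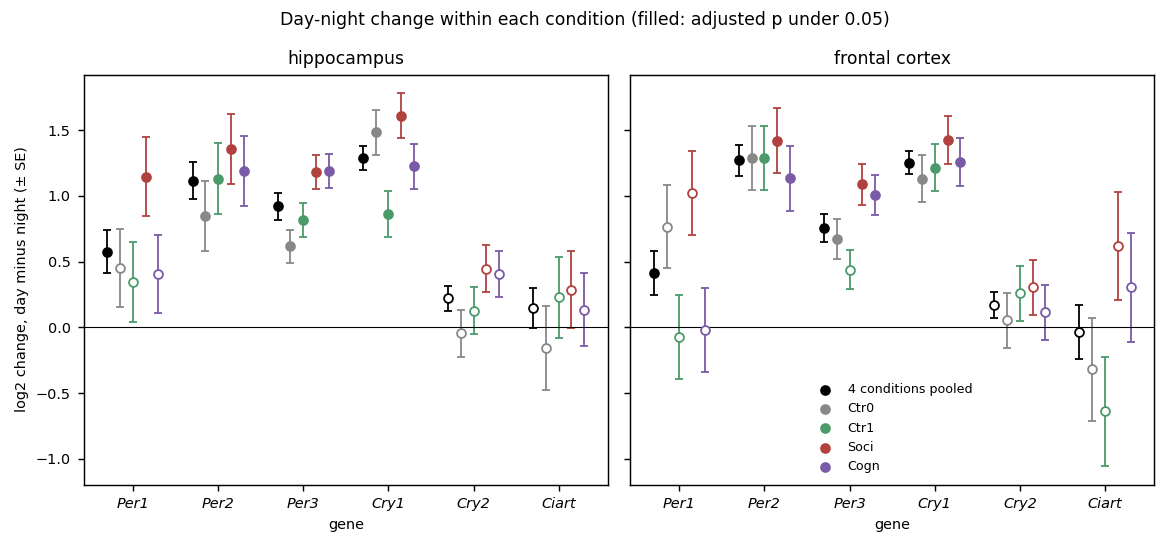
Log2 change of each gene, day minus night (y axis, with SE), in hippocampus and frontal cortex, for the 4 conditions pooled and for each condition; filled points have an adjusted p under 0.05. Cry1 and Per2 are filled in every contrast, Per1 in the pooled contrasts and in hippocampal Soci, and Cry2 and Ciart in none.

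Whether the day-night change differed among the conditions was tested as such. None of the 6 genes passed in hippocampus (edgeR, 0%, 0 of 16826 genes; Per3 and Cry1 at an unadjusted p under 0.05, 0 members with DESeq2) or in frontal cortex (edgeR, 0.00616% of genes; Per1 and Per3 at an unadjusted p under 0.05, 0 members with DESeq2). The changes within the conditions are therefore not shown to differ from each other for any of the 6.

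The level averaged over the phases did not pass among the 4 conditions for any of the 6 genes with edgeR. In hippocampus 0% of genes passed, with Per3 (edgeR, adjusted p = 0.0553) and Ciart at an unadjusted p under 0.05, and DESeq2 called Per3. In frontal cortex 0% passed as well, with Per3 at an unadjusted p under 0.05 and 0 members called by DESeq2. Of the 6 pairs of conditions in hippocampus, Soci against Ctr1 gave a call in 0.0119% of genes, Per3 among them, lower in Soci by a log2 of -0.53 ± 0.09 (SE, edgeR, adjusted p = 0.0193). That call was lost without replicate 2, 3 or 4 (edgeR, adjusted p = 0.447, 0.315 and 0.9), with library totals alone, where the value was -0.10, without the 3 largest libraries and with the cell type scores. Against Ctr1, Cogn had a Per3 value of -0.44 ± 0.09 (SE, edgeR, adjusted p = 0.147), which DESeq2 called, in a pair where 0.00594% of genes passed. In the other 4 pairs in hippocampus and in the 6 pairs in frontal cortex 0% of genes passed with edgeR, and DESeq2 called 0 of the 6 members.

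The levels of Per3 by phase are given as a description, chosen after the values were seen. The test of whether its day-night change differed among the conditions had an adjusted p = 0.999 in hippocampus (edgeR). In night hippocampus Per3 had 22.6, 24.6, 25.9 and 29.1 CPM in Soci and 21.5, 25.0, 28.7 and 32.5 in Cogn, against 32.6, 37.3, 37.9 and 39.7 in Ctr0 and 36.2, 39.1, 45.0 and 45.1 in Ctr1. All 8 libraries of Soci and Cogn thus lay below all 8 of the Ctr groups, as they did for 0.0386% of genes tested, and this grouping of conditions was made after the values were seen. In night frontal cortex Per3 had 21.7, 23.1, 27.3 and 28.1 CPM in Soci and 23.0, 24.9, 27.0 and 32.8 in Cogn, against 31.4, 32.2, 39.4 and 45.2 in Ctr0 and 36.3, 36.5, 48.9 and 50.9 in Ctr1. There 1 Cogn library, at 32.8 CPM, stood above 2 libraries of Ctr0. In day hippocampus Per3 had 47.2 to 59.7 CPM in Ctr0 and 62.5 to 84.4 in Ctr1, which did not overlap, while Soci, at 47.3 to 63.6, and Cogn, at 47.1 to 67.8, overlapped with both. The share of all genes that kept Ctr0 and Ctr1 apart in this way was not counted. Averaged over the phases, that pair gave a call in 0% of genes (edgeR). In day frontal cortex the 4 conditions overlapped, with means of Per3 between 53.0 and 59.1 CPM.

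Between the regions Per2 alone passed, higher in hippocampus by a log2 of 0.29 ± 0.09 averaged over the phases (SE, edgeR, adjusted p = 0.024), where 16.6% of genes passed in either direction. The call was lost without replicate 2, 3 or 4 (log2 0.22, 0.24 and 0.25), with library totals alone (0.17) and in 3 other alternatives. For the other 5 genes the log2 difference lay between -0.19 ± 0.13 for Ciart and 0.05 ± 0.07 for Cry2 (SE, edgeR, adjusted p from 0.333 to 0.869). The day-night change itself did not differ between regions for any of the 6 genes (edgeR, 0 at an unadjusted p under 0.05, 0 with DESeq2), where 1.19% of all genes did. With the cell type scores Per2 passed, with a smaller change in hippocampus by a log2 of -0.66 (edgeR, adjusted p = 0.00029). Without them, the differences of the changes, hippocampus minus frontal cortex, lay between -0.20 ± 0.18 for Per2 and 0.14 ± 0.26 for Ciart (SE). The main fit took the 64 libraries as independent, although the regions may share animals. The deviations from group means were compared between regions for libraries of the same phase, condition and number. Over 32 such pairs r had a median of 0.0064 and ran from -0.74 to 0.78, with 12 over 0.1. Agreement of the regions is thus not shown to be independent.

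Over the 16 groups the mean level of Cry1 ran from 4.13 CPM in hippocampal Night Soci to 12.8 CPM in cortical Day Soci, that of Per2 from 9.03 in cortical Night Soci to 31.0 in hippocampal Day Cogn and that of Per3 from 25.0 in cortical Night Soci to 70.3 in hippocampal Day Ctr1. For each of these 3 genes the 8 day groups held the 8 highest places, and the lowest day group had 9.65 CPM for Cry1, 23.5 for Per2 and 53.0 for Per3 against 5.48, 14.6 and 43.2 in the highest night group. That step was the place in the order where neighbouring groups of Cry1 and of Per2 did not overlap. The other 14 pairs of neighbours overlapped for each of them, and for Per1, Per3, Cry2 and Ciart all 15 did. Per1 had 6 of its 8 highest groups in day, from 29.7 CPM in hippocampal Night Soci to 65.1 in cortical Day Soci, Cry2 also 6, from 14.3 to 20.9 CPM, and Ciart 5, from 0.700 to 1.36 CPM. Within groups the spread was smallest for Cry1, with a median coefficient of variation of 13.1%, and largest for Ciart at 29.9%, Per1 at 26.0% and Per2 at 25.2%. Per3 had 14.4% and Cry2 14.8%.

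**Figure D4:**
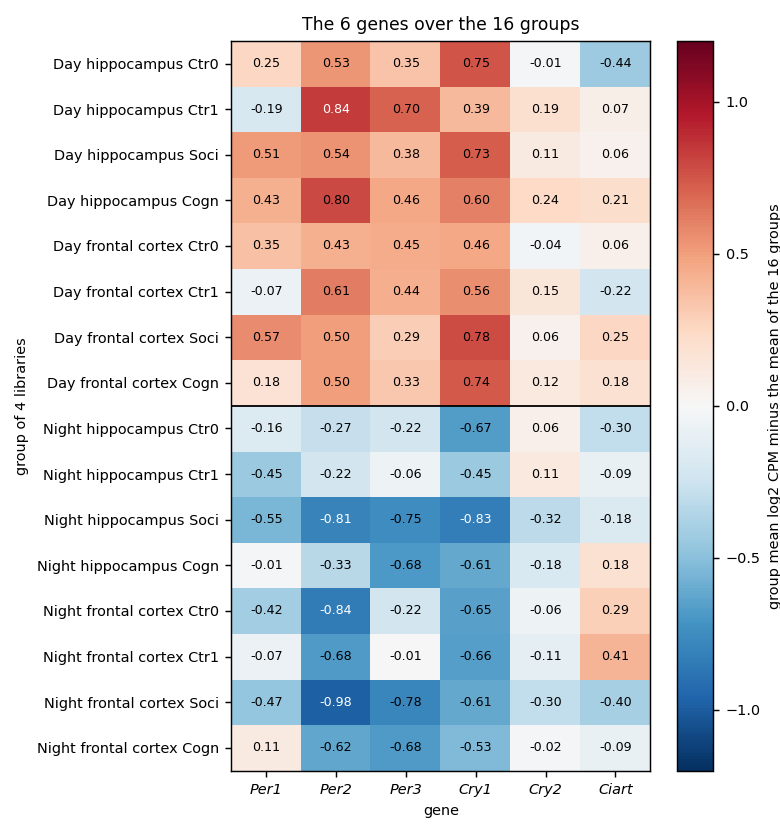
Mean log2 CPM of each gene in each of the 16 groups of 4 libraries, minus the mean of that gene over the 16 groups (colour and printed number), with the 8 day groups above the line. For Per2, Per3 and Cry1 the values are above 0 in the 8 day groups and below 0 in the 8 night groups.

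The correlation of the genes over the 16 group means is a description, since the groups share phases and the libraries of a group share isolation. The highest Pearson r were 0.93 for Per2 with Cry1, 0.90 for Per2 with Per3 and 0.85 for Per3 with Cry1 (n = 16 groups; Spearman rho 0.75, 0.90 and 0.65). Cry2 followed Per3 and Per2 with r = 0.80 and 0.79 although its own day-night difference did not pass, and Per1 followed Cry1 with 0.77. Ciart stood apart, with r between 0.08 and 0.31 to the other 5 genes. Within the 8 day groups Per3 and Cry1 went opposite ways (r = -0.89), as did Per1 and Per3 (r = -0.67), while Per2 and Cry2 kept r = 0.83 in day and 0.70 in night groups. Once the mean of each region and phase was subtracted, the values for Per2 with Cry1 and Per3 with Cry1 were 0.16 and -0.11, and Per2 with Cry2 had the highest value, 0.85, followed by Per3 with Cry2 at 0.64.

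**Figure D5:**
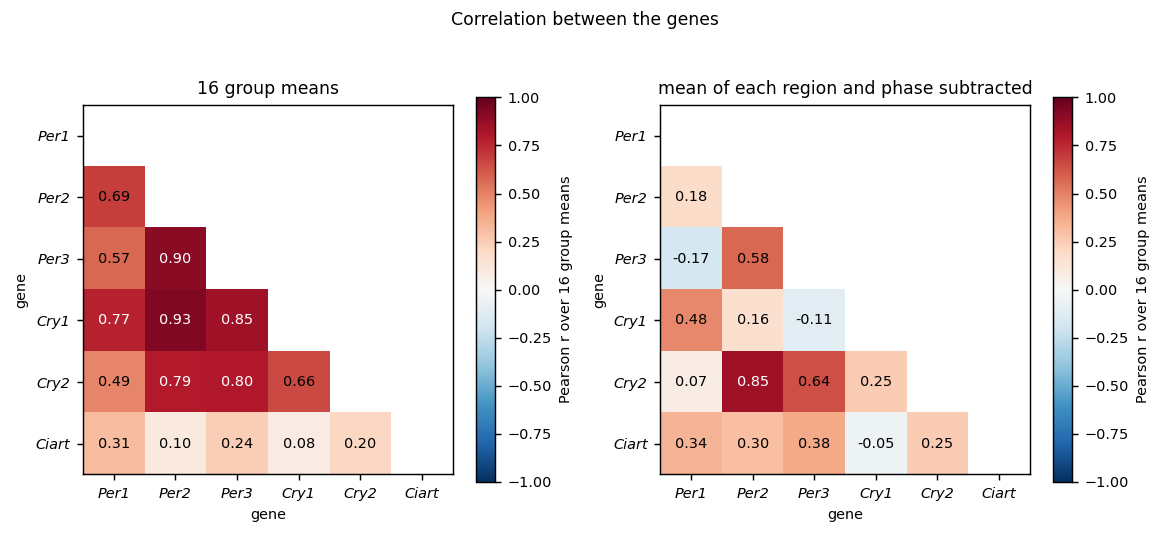
Pearson r between the genes over 16 group means of log2 CPM (left) and after the mean of each region and phase was subtracted from the group means (right), as colour and printed number. Per2 with Cry1 has 0.93 on the left and 0.16 on the right, and Per2 with Cry2 0.79 and 0.85.

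Among 10920 other genes whose log2 CPM averaged 2 or more, those most like each member over the 16 groups were found by Pearson r. For Cry1 these were Hspa8 (0.99), P4ha1 (0.98) and Fxr1 (0.98), and for Per2 Samd1 (0.97), Hsph1 (0.95) and Stip1 (0.95). For Per3 they were Tef (0.96), Exoc6b (0.90) and Atp2b1 (0.88), and for Per1 Ucp2 (0.96), Ddit4 (0.95) and Anapc16 (0.95). Cry2 was most like Gm22154 (0.89), Snord17 (0.88) and Hlf (0.87), and Ciart was most like Stat2 (0.83), Gcc2 (0.72) and Dgka (0.69). The best match was thus closest for Cry1 and weakest for Ciart, which had 6 to 81 counts per library. The matches were picked as the highest of 10920 over groups that share phases, without the region and phase means subtracted.

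Of 30 other genes of the clock, 29 were tested. In hippocampus 13 rose, 10 fell and 6 did not pass, and in frontal cortex 12 rose, 9 fell and 8 did not pass, with a median log2 change of 0.12 and 0.08 against 0.02 and -0.02 over all genes. Of all 15527 genes tested in hippocampus 3637 rose and 2913 fell, and of 14975 in frontal cortex 3084 rose and 3183 fell (edgeR). With library totals alone 2 rose and 11 fell in hippocampus and 3 rose and 9 fell in frontal cortex, and with the cell type scores 1 rose and 0 fell, and 2 rose and 3 fell. In both regions 12 of them rose and 8 fell. Given are those for the repressor REV-ERB alpha, 2 PAR bZIP activators, a ROR receptor and the activators BMAL1 and CLOCK. Bhlhe40, Bhlhe41 and genes for enzymes acting on the clock proteins are given too. Nr1d1, for REV-ERB alpha, fell by 1.87 ± 0.21 and by 1.84 ± 0.22 (SE, edgeR, adjusted p = 2.22e-08 and 9.35e-08), and with the cell type scores had -1.16, which did not pass (edgeR, adjusted p = 0.121), and -1.54, which did (edgeR, adjusted p = 0.00524). Rorb fell by 0.91 ± 0.22 and by 1.36 ± 0.30 and with the scores had -0.31 and 0.24 (edgeR, adjusted p = 0.604 and 0.509). Tef rose by 0.51 ± 0.07 and 0.45 ± 0.07, and with the scores had 0.70 and 0.24 (edgeR, adjusted p = 0.0545 and 0.241). Hlf rose by 0.72 ± 0.11 and 0.38 ± 0.11, and with the scores by 1.19 and 0.64 (edgeR, adjusted p = 0.00158 and 0.0281). The activator gene Arntl fell, where Per2, Per3 and Cry1 rose, by 0.54 ± 0.09 and by 0.64 ± 0.09 (SE, edgeR, adjusted p = 6.82e-06 and 1.16e-06), and it fell under each of the 3 other scalings. With the scores Arntl had -0.60 in hippocampus, which did not pass (edgeR, adjusted p = 0.247), and -0.68 in frontal cortex, which did (edgeR, adjusted p = 0.0157). Clock, for the partner of BMAL1, rose by 0.14 ± 0.06 and 0.11 ± 0.04 (SE, edgeR, adjusted p = 0.0486 and 0.0129). It passed neither on library totals (-0.018 and 0.044) nor with the scores (0.18 and 0.087). Bhlhe40 fell by 0.45 ± 0.11 and 0.51 ± 0.15, and Bhlhe41 rose by 0.23 ± 0.04 and 0.24 ± 0.05 (SE, edgeR). With the scores Bhlhe40 had -0.0040 and -0.27 and did not pass, and Bhlhe41 had 0.15, which did not pass, and 0.36, which did. Usp2, which encodes a deubiquitinase acting on clock proteins, rose by 0.35 ± 0.05 and 0.38 ± 0.06 (SE, edgeR, adjusted p = 3.96e-07 and 1.62e-05), with positive values under the 3 other scalings, and had 0.20 in hippocampus on library totals, which did not pass (edgeR, adjusted p = 0.112). Usp2 had 0.14 and 0.24 with the scores and passed in neither region (edgeR, adjusted p = 0.603 and 0.138). Among the genes for enzymes that mark PER and CRY proteins for degradation, Btrc, for a ubiquitin ligase subunit that acts on PER, fell by 0.23 ± 0.05 and by 0.27 ± 0.06 (SE, edgeR, adjusted p = 0.000173 and 0.000346) and fell under all 4 scalings. Its values with the scores were -0.060 in hippocampus, which did not pass (edgeR, adjusted p = 0.878), and -0.40 in frontal cortex, which did (edgeR, adjusted p = 0.0178). Csnk1d, for a kinase that phosphorylates PER, had 0.17 ± 0.03 and 0.18 ± 0.04 (SE, edgeR, adjusted p = 0.000148 and 0.000491), and with library totals alone 0.01 and 0.12, which did not pass (edgeR, adjusted p = 0.963 and 0.326). Nor did its values with the scores, -0.018 and 0.14 (edgeR, adjusted p = 0.949 and 0.306).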

How the data were processed

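The study sequenced rRNA-depleted total RNA of microglia as single-end reads. Per the submitters' processing notes the tools were STAR 2.7.3a and featureCounts of Subread 2.0.0 on build GRCm38.p5, and the values the authors deposited are raw counts per gene. Strand setting and treatment of multimapping reads are not given in the sources used here. Of 1251 genes nested in introns on the host's strand and 883 on the other, the medians were 1089 and 2.41 counts per kilobase, so counting used strand. Symbols and coordinates came from GENCODE M21 of the same build, with 49326 of 49671 genes matched. None of 96 pairs of replicates was identical (0), and their counts differed by a chi-square of at least 7.65 per degree of freedom. Every library was therefore kept as 1 replicate.

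Tests were quasi-likelihood F tests in edgeR 4.0.16 (R 4.3.3), with TMM, filterByExpr and a limit of 0.05 on p-values adjusted by Benjamini-Hochberg over all genes of a fit. Day was compared with night over 16 and 16 libraries of a region. A fit of 8 phase and condition means per region gave the changes within conditions, the conditions and their interaction with phase, and a fit of all 64 libraries gave the regions. A log2 change is day minus night or hippocampus minus frontal cortex, and its SE is its size divided by the square root of F. CPM used TMM over the 64 libraries, and log2 CPM a prior count of 2. Ratios had 0.5 added to each count. Alternatives were other size factors and library totals, other filters, DESeq2 1.42.0, the replicate number as a block, leaving out replicates or the largest libraries, and covariates for depth, for the share of Gm23935 and for 7 cell types. Cell type scores are mean log2 CPM of a marker list centred within a region. The fits were also run on simulated counts, with the same spread for every gene and no change in cell types. No result given here rests on that run. The 6 genes, the lists and the rules for naming genes (the members, those listed clock genes that passed in both regions, and the 3 genes most like each member) were chosen with earlier results of these data known.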

Additional observations from a re-analysis of the deposited data

Results flagged for a closer look

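In 7 of 96 groups of 4 libraries (6 genes in 16 groups) 1 library lay far from the other 3 by Dixon's test, where chance gives 4.8. In hippocampus, Per1 had 24.2 CPM in Day Ctr1 replicate 1 against 43.0 to 46.5 in the others. Per2 had 14.7 CPM in Night Soci replicate 1 against 7.81 to 8.63, and Cry1 had 7.88 CPM in Night Ctr1 replicate 3 against 4.58 to 4.75. In frontal cortex, Per2 had 12.9 CPM in Night Ctr0 replicate 2 against 8.09 to 8.71, 32.5 CPM in Day Cogn replicate 4 against 21.2 to 22.2, and 34.9 CPM in Day Ctr0 replicate 1 against 18.4 to 20.4. Ciart had 1.54 CPM in Night Soci replicate 1 against 0.488 to 0.571.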

How the results depend on the processing

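The counts of members past the threshold and the ratio tests were the same in 240 of 265 alternatives, weaker in 20 and stronger in 5. Values of single genes, gene counts and correlations were the same in 1543 alternatives, lost a call in 73, gained one in 14, changed sign in 62 and moved in 98. Same means direction and side of the threshold for single genes and ratios, and within 1.5 times for gene counts and counts of members. A count of members can thus lose a call and still be the same, and a contrast without calls in either fit is also the same. For correlations it means the same sign and a move of less than the SD over replicate numbers. The cause was not tested for any of these.

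With library totals alone the count was 1 within hippocampal Ctr0, 1 among hippocampal conditions and 0 between regions. Ciart then had log2 changes of -0.0054 in hippocampus and -0.078 in hippocampal Cogn, Cry2 -0.013 in cortical Cogn, Per3 -0.079 and Cry2 -0.064 between regions, and Ciart r = -0.10 with Per2 and -0.010 with Cry1. With the cell type scores the count was 0 within hippocampal Ctr0 and 0 within Ctr1, and 1 for the day-night change between regions. Log2 values with the scores were -0.054 for Ciart in hippocampus, 0.52 for Cry2 in hippocampal Ctr0, -0.10 for Per1 in hippocampal Ctr1, -0.34 and -0.72 for Ciart in cortical Soci and Cogn, and, for the difference of the change between regions, -0.27 for Per1, -0.019 for Per3 and -0.27 for Cry2. With the log2 total as covariate the count between regions was 0, with log2 values of 0.0015 for Per1 and 0.00012 for Cry1 between regions and 0.023 for Ciart in day against night frontal cortex. With the Gm23935 share the count between regions was 0, Cry1 had 0.0041 between regions and Cry2 -0.0018 in cortical Ctr0. Without the largest libraries Ciart had -0.15 in hippocampal Cogn and Cry2 -0.016 for the difference of the change. In frontal cortex no library was that large. DESeq2 gave 1 among hippocampal conditions, and Cry1 0.0040 for the difference of the change, which was 0.013 with TMM without genes over 1% of counts. The filter at 1 CPM left Ciart out of the day-night test over the pooled conditions in hippocampus.

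With replicate 4 alone the count was 0 in frontal cortex, where 0 genes passed in all (edgeR, 1665 at an unadjusted p under 0.05), and 0 between regions. Ciart then had 0.88 in frontal cortex, Per1 0.19 and Cry1 0.016 between regions, and the difference of the change was -0.13 for Per3, 0.20 for Cry1, -0.090 for Cry2 and -0.74 for Ciart.

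Leaving out each replicate in turn gave counts from 1 to 3 within hippocampal Ctr0, 1 to 3 within hippocampal Ctr1, 2 to 4 within hippocampal Soci, 0 to 4 within cortical Ctr0, 1 to 2 within cortical Ctr1, 0 to 1 among hippocampal conditions and 0 to 1 between regions. Log2 changes of Ciart ran from -0.38 to 0.20 in frontal cortex, -0.14 to 0.54 in hippocampal Ctr1, -0.17 to 0.23 in hippocampal Cogn and -0.84 to 0.047 in cortical Ctr0. Those of Cry2 ran from -0.13 to 0.25 in cortical Ctr0 and -0.062 to 0.30 in cortical Cogn, and those of Per1 from -0.36 to 0.35 in cortical Ctr1 and -0.20 to 0.41 in cortical Cogn. Between regions Per1 ran from -0.15 to 0.040, Per3 from -0.0068 to 0.11 and Cry2 from -0.030 to 0.12. The difference of the change ran from -0.024 to 0.21 for Per3, -0.11 to 0.11 for Cry1, -0.089 to 0.11 for Cry2 and -0.013 to 0.49 for Ciart. The hippocampal Per2 to Per1 ratio ran from 0.35 to 0.68. The r of Ciart ran from -0.18 to 0.38 with Per2, -0.0096 to 0.53 with Per3, -0.20 to 0.36 with Cry1 and -0.21 to 0.36 with Cry2.

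Correlations between libraries do not settle whether the replicate numbers pair them. Same-numbered libraries had a median r of 0.070 in frontal cortex and 0.017 in hippocampus, with 55 and 44 of 112 pairs over 0.1. Their r ran from -0.63 to 0.77 and from -0.72 to 0.85. Different numbers had medians of -0.052 and -0.0056, with 127 and 113 of 336 over 0.1. With the replicate number as a block, 4 members passed in each region, 6546 and 6505 genes passed, 889 genes within cortical Ctr0 became 1392, and 1 member passed among hippocampal conditions (Per3; edgeR, adjusted p = 0.0435). Per1 then passed in cortical Soci (edgeR, adjusted p = 0.0291) and had 0.014 in cortical Ctr1 and 0.054 in cortical Cogn. With a block within phase and condition the difference of the change was 0.0095 for Cry1.

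Depth limits Ciart most, with 6 to 81 counts per library. Each contrast within a condition rests on 4 and 4 libraries, and each region holds 32.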
